A study of Mus musculus with 9 samples.

Results

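The genes described here are 9 of the 27719 genes in the count table, taken by symbol: the membrane mucins *Muc1*, *Muc4* and *Muc13*, and the mucin glycosylation enzymes *Galnt3*, *C1galt1*, *Gcnt3*, *B3gnt7*, *B4galnt2* and *Fut2*. All 9 passed the filter on low counts and were among the 12566 genes tested. Colon RNA came from C57BL/6J mice, and each of 3 groups, named control, DSS and DSS + EA, had 3 mice and as many libraries. Control mice drank distilled water, whereas the DSS and DSS + EA groups drank 2.5% dextran sodium sulfate (DSS), a polymer that injures the colon epithelium, for 7 days. After 5 days of modeling, the DSS + EA mice also received electroacupuncture (EA), a weak current of 2 Hz and 0.2 mA passed through needles at the ST36 (Zusanli) point on each hind limb, once daily for 5 days in sessions of 30 minutes. Control and DSS mice were restrained for the same time without EA. No group had needles without current or EA without DSS among these libraries, so a response to the current cannot be told apart from a response to needling. Age and sex are not given in the sources used here.

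Mucins are proteins whose serine- and threonine-rich stretches carry dense O-linked sugar chains. In the colon, goblet cells secrete gel-forming mucins, while membrane mucins stay anchored in the apical surface of epithelial cells and form the glycocalyx beneath the gel. Chains begin when a GalNAc transferase such as Galnt3 places N-acetylgalactosamine on the protein. C1galt1 then adds galactose to build the core 1 structure, Gcnt3 adds the N-acetylglucosamine branch of core 2 and core 4, and B3gnt7 adds N-acetylglucosamine that lengthens the chain. B4galnt2 and Fut2 finish chains, the former with the N-acetylgalactosamine of the Sda antigen and the latter with fucose on terminal galactose. Fucose on the colon surface is a food source for gut bacteria.

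Between 2627695 and 4235576 reads per mouse were counted, so that 3 counts, the floor for a detectable value, were worth 0.708 to 1.14 CPM, the counts relative to a common library size. Library totals were adjusted by the TMM method, and adjusted p-values are from edgeR's quasi-likelihood test with Benjamini-Hochberg adjustment over all 12566 genes. Tissue content was read from marker genes, and those given in this paragraph do not tell colon from other epithelium. Summed levels of 10 pan-epithelial markers such as *Epcam* and *Cdh1* lay at 5634 to 6636 CPM in the control group, 1139 to 4247 CPM in the DSS group and 4507 to 5943 CPM in the DSS + EA group, and none of the 10 was at 0 in a whole group. The DSS mice were unlike each other: 10 leukocyte and neutrophil markers summed to 2868 CPM in mouse 1 but to 21993 and 25430 CPM in mice 2 and 3. Summed levels of 10 pancreatic acinar markers, which the colon label does not cover, were 42.1 to 260 CPM in the control and DSS mice. Nearly all of this was *Cela1*, at 238, 260 and 117 CPM in the control mice and 91.0, 48.3 and 41.2 CPM in the DSS mice. The sums were 526, 29812 and 14869 CPM in DSS + EA mice 1, 2 and 3, and 3 of the 10 were at 0 in the control and in the DSS group. Of the 9 genes, those that passed the test with DSS are therefore also given without DSS mouse 1. Those that passed with EA are also given without DSS mouse 1 and without DSS + EA mouse 2 or 3. *Muc13* and *C1galt1*, which passed in neither comparison, are given without DSS mouse 1 as well. *Galnt3* also passed in neither, and its range over the fits without each mouse is given. As DSS mouse 1 had the highest DSS value of 7 of the 9 genes, values from the fits without each mouse are added.

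The 9 genes lie on 8 chromosomes of the mouse genome (GRCm38, GENCODE M21), and all are annotated as protein coding. *Muc4* (chr16:32735886-32782391, plus strand) and *Muc13* (chr16:33794037-33819934, plus strand) share chromosome 16, and *Muc1* is at chr3:89229057-89233381 on the plus strand. Among the enzymes, *C1galt1* (chr6:7844842-7875687) and *B3gnt7* (chr1:86302832-86307305) are on the plus strand. *Galnt3* (chr2:66082766-66124994), *Gcnt3* (chr9:70031496-70038088), *B4galnt2* (chr11:95865943-95914891) and *Fut2* (chr7:45648591-45666394) are on the minus strand. Exons of a gene on the opposite strand overlap those of *Muc4*, *Muc13*, *B3gnt7* and *B4galnt2*. Since the use of strand in counting is not given in the sources used here, reads of these 4 genes and of their opposite partners cannot be told apart, although the partner of *Muc4*, *Muc20*, had only 1 read in all 9 libraries.

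Upstream sequences are shown for the 3 genes on which the comparisons turn: *Muc4* and *B4galnt2*, which had the lowest DSS levels relative to control, and *Muc1*, the gene that differed between the DSS + EA and control groups. Each is the 250 bases before the start in RefSeq (GRCm38.p6), 5′ to 3′ on the strand of the gene, with motif matches on either strand in capitals. The windows are chr3:89228806-89229055 (plus strand) for *Muc1*, chr16:32735636-32735885 (plus strand) for *Muc4* and chr11:95914872-95915121 (minus strand) for *B4galnt2*, whose last bases lie inside the gene as GENCODE annotates it.
Muc1: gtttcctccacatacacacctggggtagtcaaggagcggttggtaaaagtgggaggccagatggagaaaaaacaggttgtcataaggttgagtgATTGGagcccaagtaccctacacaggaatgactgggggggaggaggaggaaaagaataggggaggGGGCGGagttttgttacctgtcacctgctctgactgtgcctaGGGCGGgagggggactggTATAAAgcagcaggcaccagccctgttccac
Muc4: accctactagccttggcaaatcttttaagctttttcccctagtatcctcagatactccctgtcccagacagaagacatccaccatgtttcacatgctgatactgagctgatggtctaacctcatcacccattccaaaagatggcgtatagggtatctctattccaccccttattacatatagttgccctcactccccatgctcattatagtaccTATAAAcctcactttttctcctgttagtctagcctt
B4galnt2: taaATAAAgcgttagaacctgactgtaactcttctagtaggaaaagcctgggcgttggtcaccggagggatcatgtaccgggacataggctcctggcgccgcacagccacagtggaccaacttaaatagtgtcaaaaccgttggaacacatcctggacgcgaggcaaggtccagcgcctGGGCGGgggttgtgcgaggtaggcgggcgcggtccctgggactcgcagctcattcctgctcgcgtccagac
The letters searched were the GC box GGGCGG, which 32.7% of 32851 windows of this length hold, the TATA box TATAAA (12.4%), the CCAAT box CCAAT (33.8%), the STAT motif TTCNNNGAA (7.02%), the CDX motif TTTAT (37.3%) and the HNF1 motif GTTAAT (6.43%). TATAAA read on the minus strand holds TTTAT, so each TATA box is also a CDX match. *Muc1* holds TATAAA 31 bases and GGGCGG 49 and 91 bases before its start, with CCAAT on the minus strand at 156. *Muc4* holds TATAAA 36 bases before its start and no GGGCGG. *B4galnt2* holds GGGCGG at 71 and the CDX letters on the minus strand at 247, without TATAAA. Of all 9 genes, 7 had a window. TATAAA was present only in those of *Muc1* and *Muc4*, while those of *Galnt3* and *C1galt1* held 3 and 5 GC boxes with 76.8% and 82.8% G and C, against a median of 52.4% over all windows. A match is a description of these letters only.

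The comparison of the DSS and control groups asks how the membrane mucins and their enzymes stood in the injured colon. Of the 9 genes, 5 fell (*Muc4*, *Gcnt3*, *B3gnt7*, *B4galnt2* and *Fut2*) and 0 rose at an adjusted p under 0.05. Over all genes tested, 40.9% passed this test, with 21.5% higher and 19.5% lower. The median log2 fold change was -1.72 over the 9 genes and 0.02 over all genes tested. By the thresholds used in the study, a log2 fold change beyond 2.5 and an unadjusted P under 0.01, *Muc4* and *B4galnt2* were differentially expressed, and 3.57% of all genes tested were lower by that rule. The DSS group lay wholly below the control group for 4 of the 9 genes, against 25.9% of all genes tested.

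**Figure D1:**
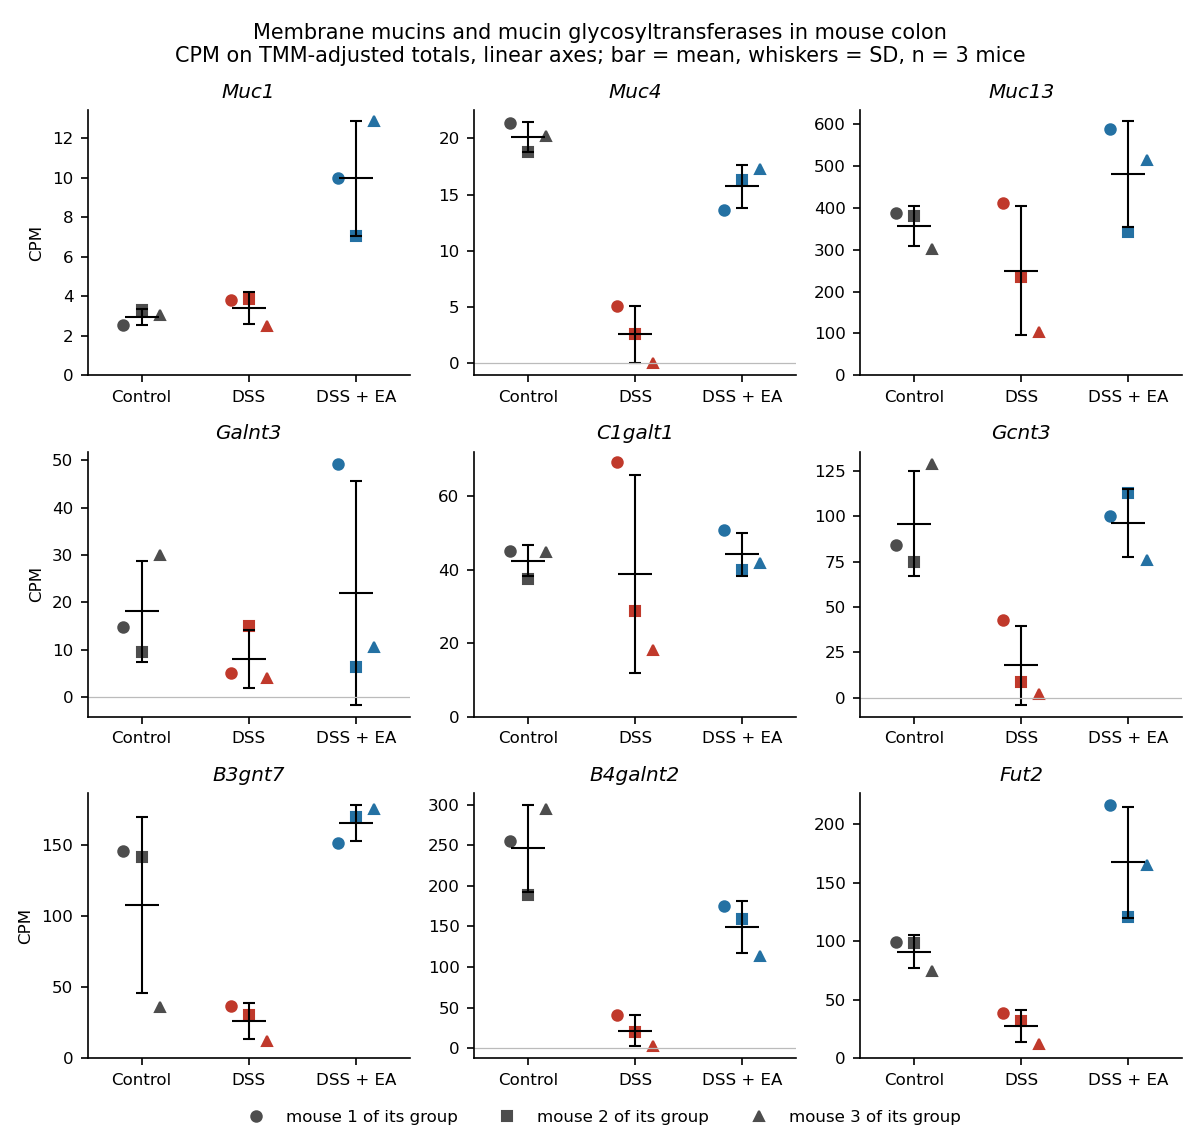
Level of each gene on linear axes in CPM, by group of 3 mice, with 1 point per mouse, the mean as a bar and the SD as whiskers. DSS mice lay below all control mice for *Muc4*, *Gcnt3*, *B4galnt2* and *Fut2*, and *Muc1* was highest in the DSS + EA mice.

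*Muc4*, a large membrane mucin with EGF-like domains, measured 21.4, 18.8 and 20.2 CPM in control mice 1, 2 and 3. DSS mice 1 and 2 had 5.11 and 2.59 CPM, from 16 and 12 counts, and DSS mouse 3 had 0 counts, which allows up to 0.929 CPM. In the DSS + EA mice it measured 13.6, 16.3 and 17.3 CPM. The 3 groups thus did not overlap, with the control mice highest and the DSS mice lowest. Relative to the control mice, *Muc4* was 7.79-fold lower with DSS (log2 fold change -2.96, SE 0.61, edgeR adjusted p = 0.00415). Without DSS mouse 1 the log2 fold change was -3.74 (adjusted p = 0.000985). Over the fits without each mouse it lay between -3.74 and -2.42, with an adjusted p of up to 0.0175.

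*Muc13*, a membrane mucin of enterocytes and goblet cells, measured 387, 382 and 302 CPM in the control mice. It measured 411, 235 and 103 CPM in the DSS mice and 588, 342 and 515 CPM in the DSS + EA mice. DSS mouse 1 was above every control mouse, whereas mice 2 and 3 were below all of them. The difference between DSS and control mice did not pass the test (log2 fold change -0.52, 95% interval -1.44 to 0.41, edgeR adjusted p = 0.342). Without DSS mouse 1, which had the fewest leukocyte marker reads of that group, the log2 fold change was -1.07 (adjusted p = 0.0311). Over the fits without each mouse it lay between -1.07 and -0.15, with an edgeR adjusted p of up to 0.733.

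*Muc1*, the membrane mucin of many glandular epithelia, was scarce in the colon, with 8 to 18 counts in each control and DSS mouse. It measured 2.52, 3.30 and 3.04 CPM in the control mice and 3.83, 3.88 and 2.48 CPM in the DSS mice. The ranges of these 2 groups overlapped, and their difference did not pass the test (log2 fold change 0.22, 95% interval -0.59 to 1.03, edgeR adjusted p = 0.659).

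*B4galnt2*, the Sda antigen enzyme, had the largest fall of the 9 genes. Control mice had 255, 189 and 294 CPM and DSS mice had 41.5, 20.3 and 3.41 CPM, the last from 11 counts. All DSS mice were far below all control mice, and the mean fell 11.3-fold (log2 fold change -3.50, SE 0.64, edgeR adjusted p = 0.00225). The value without DSS mouse 1 was -4.31 (adjusted p = 0.000382). Over the fits without each mouse the value lay between -4.31 and -3.0, with an adjusted p of up to 0.0128.

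*Gcnt3*, the core 2 and core 4 branching enzyme, measured 84.5, 74.6 and 129 CPM in the control mice. The DSS mice spread widely, with 42.8, 8.84 and 2.17 CPM, yet none reached the lowest control value. *Gcnt3* was 5.39-fold lower (log2 fold change -2.43, SE 0.74, edgeR adjusted p = 0.0255). This call was near the threshold: leaving out control mouse 1, control mouse 3 or DSS mouse 2 gave log2 fold changes of -2.51, -2.16 and -2.09 with adjusted p of 0.0505, 0.0740 and 0.0878, and a fit of only these 2 groups gave 0.0566. Without DSS mouse 1 the value was -4.03, and over the fits without each mouse it lay between -4.03 and -1.91.

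*Fut2*, which adds terminal fucose, measured 99.1, 98.6 and 74.5 CPM in the control mice and 38.6, 31.7 and 12.1 CPM in the DSS mice. Every DSS mouse was below every control mouse, and the level was 3.30-fold lower (log2 fold change -1.72, SE 0.38, edgeR adjusted p = 0.00605). *B3gnt7*, the chain-lengthening enzyme, measured 146, 142 and 36.1 CPM in the control mice and 36.7, 30.2 and 12.4 CPM in the DSS mice. Here the groups overlapped, because control mouse 3 lay just below DSS mouse 1. *B3gnt7* was 4.09-fold lower with DSS (log2 fold change -2.03, SE 0.51, edgeR adjusted p = 0.0109). With DSS mouse 1 left out, *Fut2* was at -2.02 (adjusted p = 0.00273) and *B3gnt7* at -2.32 (adjusted p = 0.00966). Over the fits without each mouse, *Fut2* lay between -2.02 and -1.37 (adjusted p of up to 0.022). *B3gnt7* lay between -2.44 and -1.70 (adjusted p of up to 0.0412).

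*Galnt3* and *C1galt1*, the enzymes of the first steps among the 9 genes, gave no call. *C1galt1*, the core 1 synthase, measured 45.1, 37.6 and 44.9 CPM in the control mice and 69.3, 28.9 and 18.3 CPM in the DSS mice, which lay on both sides of the control range (log2 fold change -0.14, 95% interval -1.03 to 0.76, edgeR adjusted p = 0.809). Without DSS mouse 1 the log2 fold change was -0.83 with an adjusted p of 0.0182. Over the fits without each mouse it lay between -0.83 and 0.20, with an adjusted p of up to 0.952. *Galnt3*, an initiating enzyme, had 14.9, 9.57 and 30.0 CPM in the control mice and 5.11, 15.1 and 4.02 CPM in the DSS mice (log2 fold change -1.11, 95% interval -2.86 to 0.63, adjusted p = 0.279). Its interval was the widest of the 9 genes in this comparison and includes falls as large as that of *Gcnt3*. Over the fits without each mouse *Galnt3* lay between -1.97 and -0.57, with an edgeR adjusted p of 0.132 or more.

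Within the DSS group, mouse 3 had the lowest value of all 9 genes, mouse 1 the highest of 7 and mouse 2 the highest of *Muc1* and *Galnt3*. The order of the 3 mice for these 7 genes was also that of the pan-epithelial sum, which was 4247, 2443 and 1139 CPM in DSS mice 1, 2 and 3. Leukocyte sums, given above, had the reverse order. In tissue RNA, fewer epithelial cells and less RNA per epithelial cell cannot be told apart.

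Counts were therefore also set against the reads of the 10 pan-epithelial markers in the same mouse. Most genes stand higher in the DSS mice on this scale, where the median log2 fold change of all genes tested was 1.59. On this scale *Muc13* measured 65.8, 67.8 and 45.5 reads per 1000 epithelial reads in the control mice and 96.9, 96.0 and 90.5 in the DSS mice, so that the DSS mice lay close together and above the control mice. *C1galt1* likewise measured 7.67, 6.67 and 6.76 in the control mice and 11.8 to 16.3 in the DSS mice. *B4galnt2* stayed low in the DSS mice, at 9.77, 8.30 and 2.99 against 43.3, 33.5 and 44.3 in the control mice. *Fut2* came closer, at 9.09, 13.0 and 10.6 in the DSS mice and 16.8, 17.5 and 11.2 in the control mice, with the ranges overlapping.

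With libraries scaled to these markers in the edgeR fit, the median log2 fold change of all genes tested moved from 0.02 to 1.59, with 58.6% of them higher and 3.04% lower at an adjusted p under 0.05. The values above and below on this scale are to be read against that shift. *B4galnt2* (-2.49, adjusted p = 0.000595), *Muc4* (-1.93, adjusted p = 0.0134) and *Gcnt3* (-1.55, adjusted p = 0.0230) were still lower in the DSS group. *Fut2* (-0.48, adjusted p = 0.375) and *B3gnt7* (-0.80, adjusted p = 0.196) no longer passed the test. *Muc1* was higher (1.58, adjusted p = 0.0301). *Muc13* (0.66, adjusted p = 0.201), *Galnt3* (0.32, adjusted p = 0.686) and *C1galt1* (1.06, adjusted p = 0.0587) turned from negative to positive values without passing the test. The call or the direction of these last 6 genes thus depended on the scale.

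**Figure D2:**
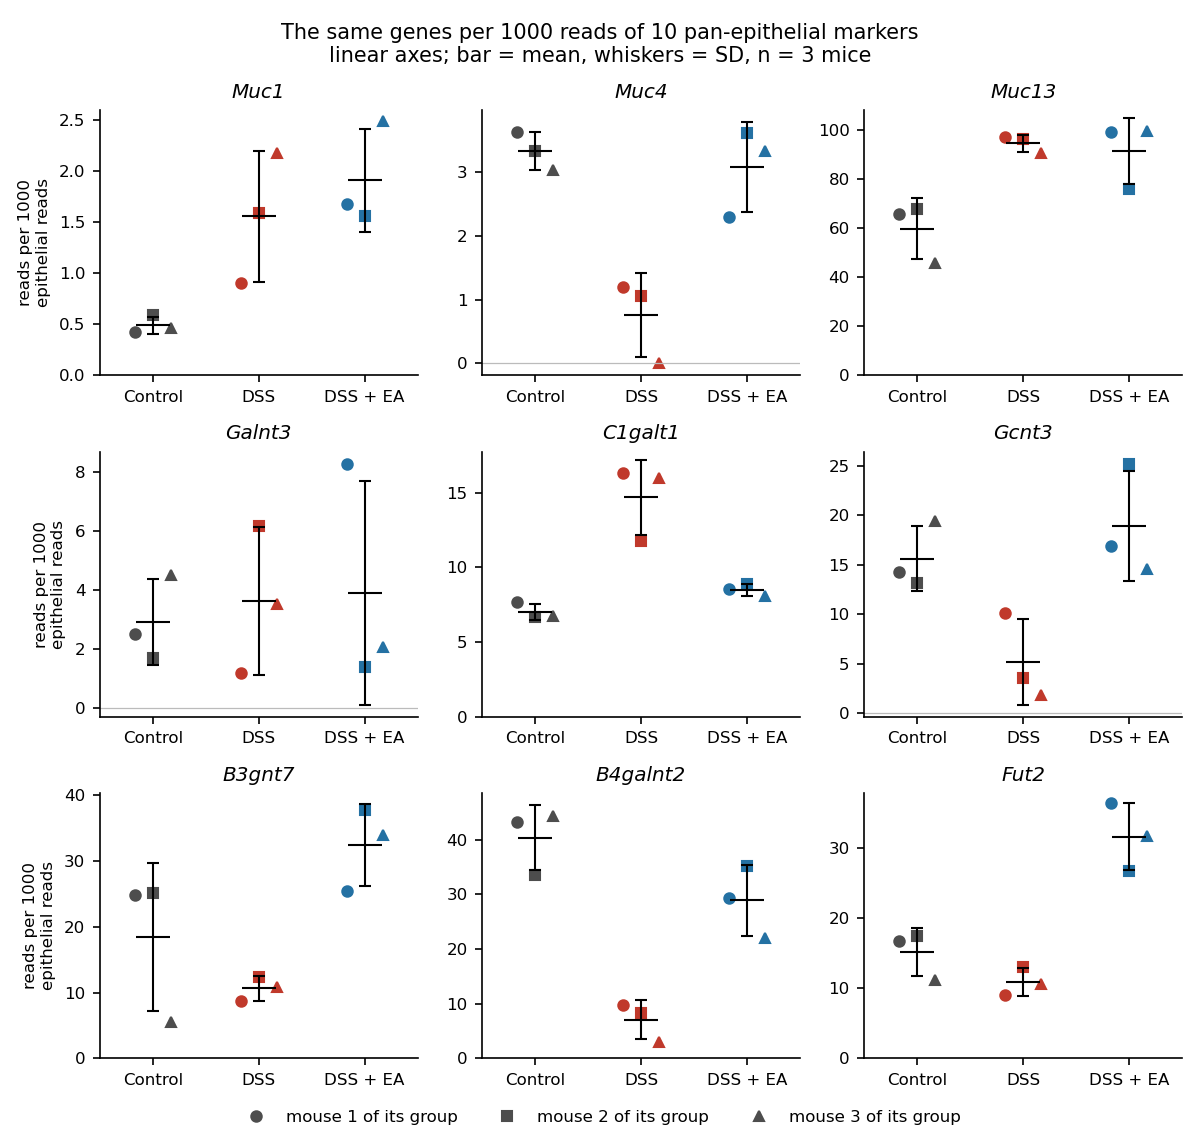
The same genes as reads per 1000 reads of 10 pan-epithelial markers on linear axes, with 1 point per mouse, the mean as a bar and the SD as whiskers. *Muc13* lies at 90.5 to 96.9 in the 3 DSS mice and at 45.5 to 67.8 in the control mice, while *B4galnt2* remains below the control mice in all DSS mice. For DSS against control on this scale, the log2 fold change of *Muc13* was 0.66 and the median of all genes tested was 1.59.

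The comparison of the DSS + EA and DSS groups addresses the treatment. *Muc1*, *Muc4*, *Gcnt3*, *B3gnt7*, *B4galnt2* and *Fut2*, 6 of the 9 genes, rose at an adjusted p under 0.05 and 0 fell. Of all genes tested, 35.5% passed this test, with 17.2% higher and 18.3% lower. The median log2 fold change was 2.44 over the 9 genes and -0.02 over all genes tested. *Muc4*, *B3gnt7*, *B4galnt2* and *Fut2* met the thresholds of the study, which 2.91% of all genes tested met in the upward direction. For 6 of the 9 genes every DSS + EA mouse was above every DSS mouse, as it was for 24.2% of all genes tested. The DSS mice are shared by this comparison and the former, and a low value in them enters both.

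**Figure D3:**
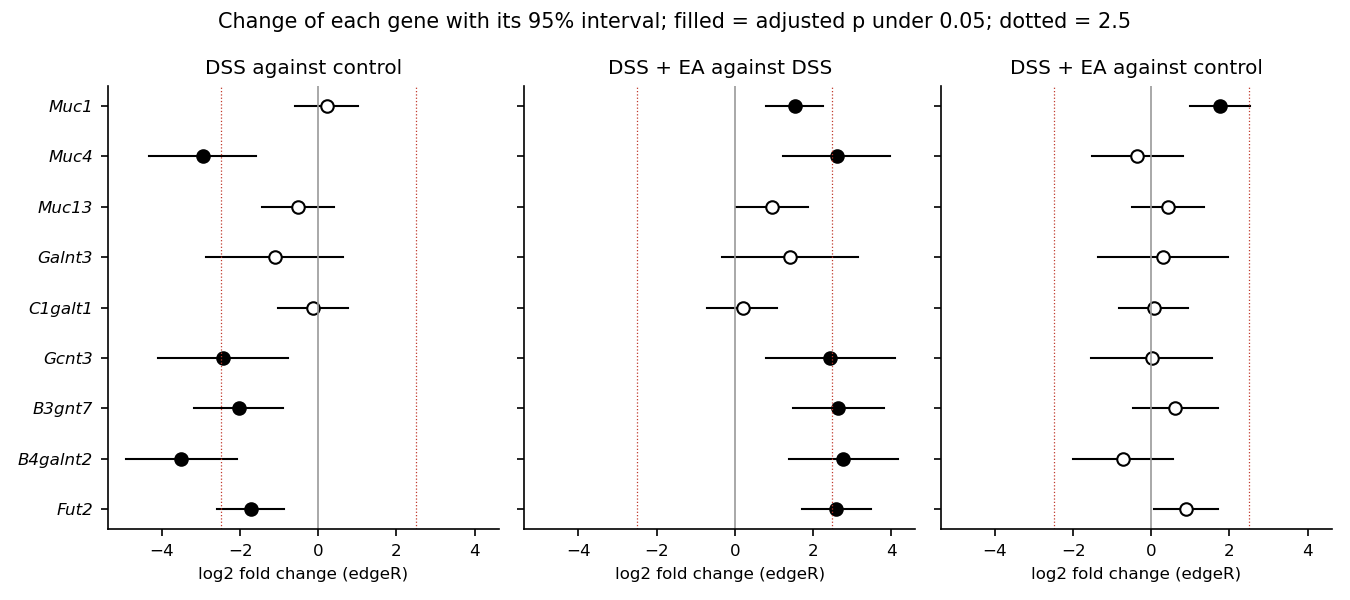
Log2 fold changes of the 9 genes with 95% intervals in a panel for each pair of groups. Points are filled where the adjusted p was under 0.05 and dotted lines mark 2.5. The fall of *B4galnt2* (-3.50) and the rise of *B4galnt2* (2.78) stand beside values of *C1galt1* near 0 (-0.14 and 0.20).

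*Fut2* had the smallest adjusted p of the 9 genes. It measured 216, 121 and 165 CPM in the DSS + EA mice, all above the 12.1 to 38.6 CPM of the DSS mice, and was 6.08-fold higher (log2 fold change 2.60, SE 0.39, edgeR adjusted p = 0.00139). *B3gnt7* measured 152, 170 and 176 CPM, with the 3 mice close together, and was 6.26-fold higher (log2 fold change 2.65, SE 0.52, adjusted p = 0.00464). Both enzymes were higher in 3 of 3 DSS + EA mice than in any DSS mouse. Without DSS mouse 1, *Fut2* was at 2.87 (adjusted p = 0.000702) and *B3gnt7* at 2.90 (adjusted p = 0.00420). Without DSS + EA mouse 2 or 3, *Fut2* was at 2.79 and 2.57 (adjusted p = 0.00338 and 0.00699) and *B3gnt7* at 2.63 and 2.56 (adjusted p = 0.0139 and 0.0182). The lowest values over the fits without each mouse were 2.25 for *Fut2* and 2.31 for *B3gnt7*.

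*B4galnt2* measured 175, 159 and 114 CPM in the DSS + EA mice, between the control and the DSS ranges. It was 6.87-fold higher than in the DSS mice (log2 fold change 2.78, SE 0.62, edgeR adjusted p = 0.00817). Leaving out DSS mouse 1 gave 3.56 (adjusted p = 0.0012), and leaving out DSS + EA mouse 2 or 3 gave 2.73 and 2.90 (adjusted p = 0.0228 and 0.0207). The lowest value over the fits without each mouse was 2.28, and the highest adjusted p was 0.0341. *Gcnt3* measured 100, 113 and 75.8 CPM, inside the control range, and was 5.43-fold higher (log2 fold change 2.44, SE 0.74, adjusted p = 0.0289). The call of *Gcnt3* was again lost when DSS mouse 2 or any one DSS + EA mouse was left out (adjusted p between 0.0574 and 0.0986) or with only these 2 groups in the fit (0.0641). Its value was 4.01 without DSS mouse 1 and 2.31 and 2.54 without DSS + EA mouse 2 or 3. The lowest value of *Gcnt3* over the fits without each mouse was 1.92. *Muc4* was 6.09-fold higher (log2 fold change 2.61, SE 0.61, adjusted p = 0.0101), with 44 to 55 counts in each DSS + EA mouse against 0 to 16 in each DSS mouse. For *Muc4* the value was 3.35 without DSS mouse 1 (adjusted p = 0.0023) and 2.58 and 2.49 without DSS + EA mouse 2 or 3 (adjusted p = 0.0272 and 0.0359). Its lowest value over the fits without each mouse was 2.07.

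*Muc1* measured 9.97, 7.04 and 12.9 CPM in the DSS + EA mice, from 33, 19 and 41 counts. All 3 were above every DSS and every control mouse. The level was 2.91-fold that of the DSS mice (log2 fold change 1.54, SE 0.33, edgeR adjusted p = 0.00668). *Muc1* is also made by pancreatic cells, and all 10 acinar markers were higher in the DSS + EA than in the DSS group. In DSS + EA mice 1, 2 and 3, *Muc1* at 9.97, 7.04 and 12.9 CPM stood beside acinar sums of 526, 29812 and 14869 CPM. Leaving out mouse 2 gave a log2 fold change of 1.73 (adjusted p = 0.00839), leaving out mouse 3 gave 1.27 (adjusted p = 0.0341), and leaving out DSS mouse 1 gave 1.58 (adjusted p = 0.00859). The part of pancreatic RNA in the *Muc1* values was not tested.

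*Muc13* (log2 fold change 0.95, 95% interval 0.02 to 1.88, edgeR adjusted p = 0.100), *Galnt3* (1.42, -0.32 to 3.15, adjusted p = 0.176) and *C1galt1* (0.20, -0.70 to 1.09, adjusted p = 0.726) did not pass the test. *Galnt3* measured 49.2, 6.30 and 10.7 CPM in DSS + EA mice 1, 2 and 3, and without mouse 1 its log2 fold change was 0.04. *C1galt1* measured 51.0, 40.0 and 41.9 CPM in the DSS + EA mice, inside the wide DSS range. Without DSS mouse 1, *Muc13* (1.47, adjusted p = 0.00888) and *C1galt1* (0.86, adjusted p = 0.0168) passed the test. Over the fits without each mouse, *Muc13* lay between 0.58 and 1.47 (adjusted p of up to 0.236). *C1galt1* lay between -0.14 and 0.86 (adjusted p of up to 0.979). *Galnt3* lay between 0.04 and 2.28, with an edgeR adjusted p of 0.094 or more.

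Per 1000 epithelial reads, *Fut2* measured 36.4, 26.8 and 31.8 in the DSS + EA mice against 9.09 to 13.0 in the DSS mice. *B3gnt7* measured 25.5, 37.7 and 34.0 against 8.64 to 12.4. *Muc13*, in contrast, measured 98.9, 75.9 and 99.5, on both sides of the 90.5 to 96.9 of the DSS mice. *Muc1* measured 1.68, 1.56 and 2.49, which overlapped the 0.902 to 2.18 of the DSS mice. With this scaling in the fit, where the median of all genes tested moved from -0.02 to -1.37 and 2.91% of them were higher and 49.9% lower, *B4galnt2* (2.01, adjusted p = 0.00399), *Gcnt3* (1.82, adjusted p = 0.0129), *Fut2* (1.54, adjusted p = 0.0128), *Muc4* (1.81, adjusted p = 0.0233) and *B3gnt7* (1.61, adjusted p = 0.0199) still passed the edgeR test. *Muc1* (0.37, adjusted p = 0.592) did not, and *Muc13* (-0.05, adjusted p = 0.932) and *C1galt1* (-0.79, adjusted p = 0.162) turned negative.

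Between the DSS + EA and control groups, 1 of the 9 genes passed the test, and 3.64% of all genes tested did, with 3.00% higher and 0.637% lower. *Muc1* was 3.38-fold higher in the DSS + EA group (log2 fold change 1.76, SE 0.34, edgeR adjusted p = 0.0215). It passed without DSS + EA mouse 2 (1.95, adjusted p = 0.0257) but not without DSS + EA mouse 1 or 3 or without any one control mouse, where adjusted p was 0.0647 or more, nor with the epithelial scaling (1.95, adjusted p = 0.0965).

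The other 8 genes did not pass, and their intervals leave room for changes in either direction or upward. For *Fut2* the log2 fold change was 0.88 with a 95% interval of 0.06 to 1.70 (edgeR adjusted p = 0.258), and all 3 DSS + EA mice, at 121 to 216 CPM, were above the control mice, at 74.5 to 99.1 CPM. *B3gnt7* (0.62, interval -0.47 to 1.70) was also higher in each DSS + EA mouse than in each control mouse. *Muc4* (-0.36, interval -1.52 to 0.80) and *B4galnt2* (-0.72, interval -2.00 to 0.56) were lower in each. Groups that do not overlap in this comparison were found for 18.0% of all genes tested in the upward and 14.2% in the downward direction. *Gcnt3* (0.01, interval -1.53 to 1.55), *C1galt1* (0.06, interval -0.83 to 0.95), *Galnt3* (0.30, interval -1.37 to 1.97) and *Muc13* (0.43, interval -0.49 to 1.35) had overlapping groups.

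Other genes of the same pathway were read from lists. On the TMM scale, 21.5% of all genes tested rose with DSS and 19.5% fell. With EA, 17.2% rose and 18.3% fell. List counts on this scale are to be read against these shares. Among 10 further initiating GalNAc transferases tested, 5 fell and 3 rose with DSS, and 3 rose and 3 fell in the DSS + EA group relative to DSS. *Galnt7*, which acts on peptides that already carry GalNAc, fell with DSS (log2 fold change -2.12) and rose with EA (1.71), and *Galnt6* fell with DSS (-1.10). *Galnt4* rose with EA (1.25), a call lost in 6 of the 9 fits without 1 mouse, where its values lay between 0.99 and 1.31. Without DSS mouse 2 or DSS + EA mouse 3, the EA call of *Galnt7* was lost (1.55 and 1.65). *Galnt18* and *Galnt2* rose with DSS (1.99 and 1.59), and *Galnt18* and *Galnt15* fell in the DSS + EA group (-2.09 and -2.47). Of 8 stromal and muscle markers, 5 rose with DSS and 2 fell, the latter being the muscle genes *Des* (-1.61) and *Myh11* (-1.01), which changed sign with epithelial scaling (0.19 and 0.71). The 8 summed to 1691 to 1923 CPM in the control mice, 2334 to 4556 CPM in the DSS mice and 1704 to 1880 CPM in the DSS + EA mice. Their part in these opposite directions was not tested.

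Core and chain extension enzymes other than the 3 described above showed 5 falls and 2 rises among 16 tested with DSS, and 8 rises and 2 falls in the DSS + EA group. *B3gnt6*, the core 3 synthase of the colon, measured 13.9, 15.5 and 27.4 CPM in the control mice, 1.28, 0.216 and 0.929 CPM in the DSS mice and 9.36, 5.56 and 7.24 CPM in the DSS + EA mice. It was lower with DSS (log2 fold change -4.59, SE 0.52, edgeR adjusted p = 0.000195) and higher with EA (3.25, SE 0.54, adjusted p = 0.00218), from 1 to 4 counts per DSS mouse. *B4galt4*, a galactosyltransferase, moved likewise (-1.74 and 1.37). *B4galt2* of the same family rose with DSS (1.51) and fell in the DSS + EA group (-1.23), in which *B4galt6* also fell (-1.38). The call of *B4galt6* was lost without DSS mouse 2 (-1.09) or any one DSS + EA mouse. *Gcnt2*, which makes branches of the I antigen, rose with DSS (2.04) and remained above control in the DSS + EA group (1.41, adjusted p = 0.0263), though not without any one control mouse or DSS + EA mouse 3 (adjusted p of 0.0732 or more).

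Of 11 other chain-ending enzymes tested, 6 fell and 1 rose with DSS, and 4 rose and 1 fell in the DSS + EA group. The sialyltransferases *St3gal4* and *St6galnac2* fell with DSS (-3.19 and -3.12) and rose with EA (2.36 and 2.03), and *St3gal1* had the opposite signs (1.86 and -1.41). *St6galnac2* was still lower than control in the DSS + EA group (-1.10, edgeR adjusted p = 0.0203), a call lost when any one mouse of these 2 groups was left out (adjusted p between 0.0613 and 0.0972). Among 9 sulfation genes, 7 fell with DSS and 4 rose with EA. The galactose sulfotransferase *Gal3st2*, which had the smallest P of the list in both comparisons and may share reads with its near-identical copies, had 10, 3 and 3 counts in the DSS mice against 38 to 67 in the control mice and 44 to 73 in the DSS + EA mice. *Gal3st1* also fell with DSS (-2.42), and *Chst4* rose with EA (1.94).

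In the list of genes that supply sugar nucleotides, those that passed the test lay on 1 side in each comparison. Of 18 tested, 12 fell with DSS and 13 rose with EA, with median log2 fold changes of -1.17 and 1.05. *Uap1*, which makes UDP-N-acetylglucosamine, fell with DSS (-1.28), and the UDP-galactose transporter *Slc35a2* rose with EA (1.08). Scaled to the epithelial markers, 2 of these 18 genes rose and 0 fell with DSS, and with EA 1 rose and 2 fell, while of all genes tested 58.6% rose and 3.04% fell with DSS and 2.91% rose and 49.9% fell with EA. On that scale 4 of the 10 GalNAc transferases rose with DSS and 0 fell. Of the 16 core and extension enzymes 7 rose and 1 fell with DSS. Of the 11 chain-ending enzymes 3 rose and 3 fell with DSS, and of the 9 sulfation genes 4 fell and 0 rose. With EA, 0 GalNAc transferases rose and 4 fell, and 1 core and extension enzyme rose and 5 fell. Of the chain-ending enzymes 1 rose and 3 fell with EA, and of the sulfation genes 2 rose and 0 fell. The EA rises of *Galnt7*, *Galnt4*, *B4galt4*, *St3gal4*, *St6galnac2* and *Chst4* did not pass the test on that scale. Those of *B3gnt6* and *Gal3st2* did. In that scaling *Galnt6*, *Uap1* and *Slc35a2* changed sign in both comparisons, and *Muc3* as well.

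Only *Muc3* and *Muc3a* of 7 other membrane mucins listed were tested. Neither passed the test with DSS (-0.88, edgeR adjusted p = 0.0615, and -1.50, adjusted p = 0.124) or with EA (0.62, adjusted p = 0.178, and 1.09, adjusted p = 0.263). Among 9 genes of secreted mucus and goblet cells tested, 9 fell with DSS and 7 rose with EA, with median log2 fold changes of -3.19 and 2.54 beside -1.88 and 2.52 for the 6 glycosyltransferases. Scaled to the epithelial markers, 8 of these 9 goblet genes fell with DSS and 8 rose with EA. Their medians were then -2.18 and 1.54, beside -0.64 and 1.57 for the 6 glycosyltransferases. On that scale 4 of 10 surface colonocyte markers fell with DSS and 5 rose with EA. With the same epithelial scaling, 3.04% of all genes tested fell with DSS and 2.91% rose with EA. *Atoh1*, the transcription factor that specifies secretory cells, had 95 to 147 counts in the control mice, 0 to 2 in the DSS mice and 73 to 105 in the DSS + EA mice. *Spdef*, which acts in goblet cell maturation, fell (-3.19) and rose (2.56). Goblet sums were 25089 to 40087 CPM in the control mice, 1139 to 8944 CPM in the DSS mice and 21648 to 22594 CPM in the DSS + EA mice, and sums of 10 surface colonocyte markers were 16145 to 20708, 2040 to 12102 and 22070 to 23270 CPM. Both sums were lowest in DSS mouse 3 and highest, within that group, in DSS mouse 1, as were most of the 9 genes, and the part of either cell type in the results of the 9 genes was not tested.

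**Figure D4:**
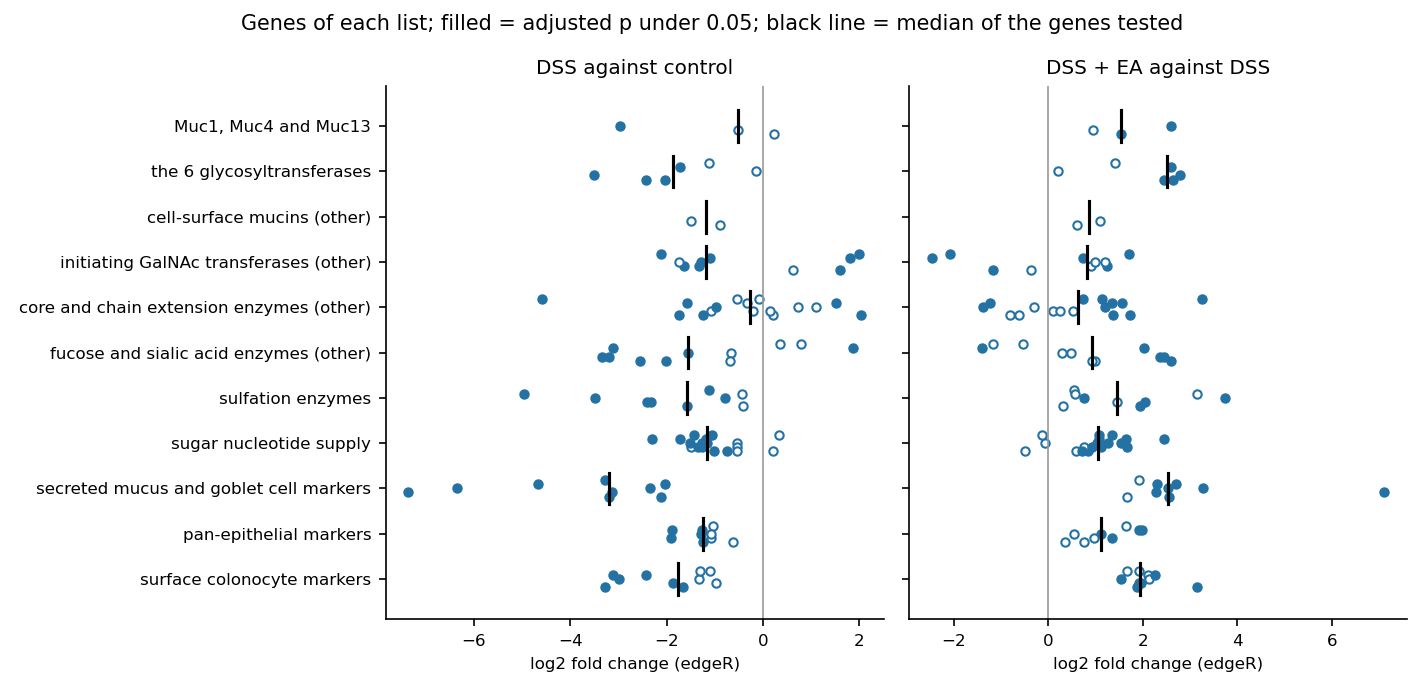
Log2 fold change of each gene of the mucin pathway lists and of 3 epithelial marker lists on the TMM scale, with DSS against control on the left and DSS + EA against DSS on the right, filled points for an adjusted p under 0.05 and a black line at the median. The medians of the mucin pathway, goblet, pan-epithelial and surface colonocyte lists drawn here lie below 0 on the left and above 0 on the right, as at -1.17 and 1.05 for sugar nucleotide supply. Scaled to epithelial markers, the medians are 0.13 and -0.08 for sugar nucleotide supply, and -2.18 and 1.54 for the goblet list.

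Across the 9 libraries, log2 CPM of *B4galnt2* followed that of *Muc4* (Pearson's r = 0.986) and *Gcnt3* (r = 0.970), and *Muc4* and *Gcnt3* had r = 0.969. *Muc1* and *Galnt3* were less like the others: r lay between 0.267 and 0.677 for *Muc1* and between 0.267 and 0.574 for *Galnt3*, the lowest being that between them. Among the genes tested that carry a plain gene symbol, *Adtrp* (r = 0.997) and *Tpsg1* (0.993) were most like *B4galnt2*, *Cdhr2* and *Ces2e* (both 0.995) most like *Gcnt3*, and *Sdsl* and *Hpdl* (both 0.991) most like *Muc4*. For *Fut2* they were *Atp10b* (0.982) and *Spink1* (0.976), for *B3gnt7* *Mbtps1* and *Brd7* (both 0.976), and for *Muc13* *Scmh1* (0.972) and *Tldc2* (0.968). *Muc1* was followed by *Sf3a1* (0.988) and *Dnaja1* (0.965), *C1galt1* by *Degs2* (0.945), and *Galnt3* by *Cox11* (0.947). These correlations are over 9 libraries in 3 groups, share depth and group differences, and are descriptions only.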

How the data were processed

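Full-length cDNA of colon RNA from 9 mice was PCR amplified and read on a Nanopore PromethION. For each gene the authors deposited whole-number read counts that were not normalized. Per the labels the genome build is mm10, and the aligner, the counting tool, the annotation and the use of strand are not given in the sources used here. Of 27733 lines, 14 hold no counts, and 5620 of the other 27719 genes had no count in any library. No 2 libraries held identical values. Copies made by PCR count as separate reads, so the floor of 3 counts covers counting error only.

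Counts were tested with edgeR 4.0.16 in R 4.3.3 (TMM normalization, filterByExpr, quasi-likelihood F test, default prior count) in 1 fit of the 3 groups without further terms, and p-values were adjusted by the Benjamini-Hochberg method over 12566 genes. The functions were tested on simulated data. The membership of the 9 genes, the other gene lists and the tests were chosen with earlier results of these data known. Genes named are the 9, up to 2 genes per other list with the smallest P in each direction in the first 2 comparisons, and the 2 genes most like each of the 9. Likeness was sought only among genes tested with a plain gene symbol, without new Nanopore loci. A few genes that this rule names are not reported here. Marker lists other than that of goblet cells are given as sums, except for the acinar marker *Cela1* and the muscle genes *Des* and *Myh11*. *Muc3*, *Muc3a* and the example markers *Epcam* and *Cdh1* were named after their values were seen. Alternatives were DESeq2 1.42.0, RLE factors, library totals, pan-epithelial scaling, no filter, a filter at a mean of 20 counts, fits of 2 groups, a replicate block, fits without each mouse, and stricter call rules. With 3 mice against 3, an exact permutation test of 1 gene cannot go below p = 0.1, and none was run. Promoter windows are from RefSeq. Positions are from GENCODE M21, and figures were drawn with matplotlib 3.10.9 in Python 3.11.15.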

Additional observations from a re-analysis of the deposited data

How the results depend on the processing

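The counts of the 9 genes that rose (6) or fell (0) with EA relative to DSS stayed within 1.5 times under every alternative run. For DSS against control, the 5 falls became 3 with pan-epithelial scaling, with 1 rise, 2 under the study's thresholds and 3 at an adjusted p under 0.01. For DSS + EA against control, the 1 rise became 0 with pan-epithelial scaling, a mean of at least 20 counts (which *Muc1* does not reach), the replicate block, the study's thresholds or an adjusted p under 0.01, and 2 with only the 2 groups compared, where *Fut2* also passed (0.88, adjusted p = 0.0423). Leaving out 1 mouse gave 4 to 7 falls with DSS, 5 to 8 rises with EA and 0 to 1 rise against control.

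Over all genes, 5145 passed for DSS against control, 7743 with pan-epithelial scaling, 1280 under the study's thresholds and 2946 at an adjusted p under 0.01. For DSS + EA against DSS, 4457 passed, 806 and 2107 under the stricter rules and 2916 to 5696 with 1 mouse left out. For DSS + EA against control, 457 passed, 696 with DESeq2, 291 with pan-epithelial scaling, 1178 with only the 2 groups, 261 and 127 under the stricter rules and 120 to 775 with 1 mouse left out.

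Pan-epithelial scaling reversed log2 fold changes for DSS against control of *Muc13* (0.66), *Galnt3* (0.32), *C1galt1* (1.06), *Galnt6* (0.37), *Slc35a2* (0.17), *Uap1* (0.10), *Muc3* (0.39), *Des* (0.19) and *Myh11* (0.71). For DSS + EA against DSS it reversed *Muc13* (-0.05), *C1galt1* (-0.79), *Galnt6* (-0.51), *Slc35a2* (-0.05), *Uap1* (-0.11), *Muc3* (-0.43), *Des* (-0.88) and *Myh11* (-1.12). *Gcnt3* against control became -0.03 with library totals and -0.04 with a mean of at least 20 counts. With 1 mouse left out, *C1galt1* ranged from -0.83 to 0.20 for DSS against control, -0.14 to 0.86 for DSS + EA against DSS and -0.06 to 0.13 against control, *Galnt3* from -1.07 to 0.85 and *Gcnt3* from -0.17 to 0.28 against control. The causes of these reversals were not tested.

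Same-numbered mice are different animals, and their deviations had correlations of -0.16 to 0.105. Differently numbered mice were not compared in this way, so these values cannot show whether a number marks a shared batch. With the replicate block, *Muc1* in the DSS + EA group against control was 1.74 (adjusted p = 0.0588), *Gcnt3* against control was -0.06, and the counts of calls among the 9 genes in the other 2 comparisons stayed within 1.5 times. Low counts limit the precision of *Muc1* (8 to 41 per library), of *Muc4* in the DSS mice (0 to 16) and of *Gcnt3* in DSS mouse 3 (7).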
